A study of Homo sapiens with 6 samples.

Results

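The genes described here are those whose products are annotated to RNA splicing, to messenger RNA processing or to the spliceosome, measured by RNA-seq in SNU668, an established line of gastric signet-ring carcinoma cells. A protein-coding gene was taken when a Gene Ontology text deposited with it held the phrase RNA splicing, mRNA splicing, mRNA processing or spliceosomal complex. This gave 32 genes, of which ZNF638 was left out for its ZNF name and USP39 for an annotation to cell division, so that 30 of the 2128 listed genes remained. A first group of 3 libraries, titled shGPER, came from SNU668 cells with a short hairpin knockdown of GPER1, which encodes an estrogen receptor coupled to G proteins. The other group, 3 libraries titled shControl, is labelled wild type in the genotype field, and the use of a control hairpin there is uncertain. How many hairpins were used is not stated, nor whether cells were a clone or a pool, or libraries separate cultures, and p-values then measure only the spread between these libraries.

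Introns are removed from messenger RNA precursors by the spliceosome, which assembles on each intron from small nuclear ribonucleoproteins (snRNPs) and many loosely bound proteins. Serine- and arginine-rich (SR) proteins mostly favour the use of nearby splice sites, heterogeneous nuclear ribonucleoproteins (hnRNPs) often oppose it, and RNA helicases drive the rearrangements between the steps. Other factors cleave and polyadenylate the 3' end, and in the cytoplasm mRNAs are deadenylated and decapped by enzymes that gather in processing bodies (P-bodies).

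Of the 30 genes, 22 carried a splicing or spliceosome term. The other 8 were matched only through the phrase cytoplasmic mRNA processing body, which names P-bodies and not the processing of precursor mRNA. These were CNOT7, CNOT8, DCP2, LSM14A, MEX3A, MEX3B, TRIM5 and TRIM21, and they are described apart. Among the 22, 5 belonged to the snRNP class, 3 to the SR class, 3 to the hnRNP class, 4 to other splicing regulators and 1 to another class, while 6 were on no class list. No member was an RNA helicase or a 3' end factor.

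The table is a part of each library. It summed to 46584 to 49148 TPM in the shGPER libraries and to 61181 to 64236 TPM in the shControl libraries, where TPM is a length-corrected share of all transcripts. TPM keep no read counts, so depth is unknown and no counting error is given. GPER1 was at 1.83, 2.41 and 2.47 TPM in shGPER libraries and at 11.04, 11.00 and 10.41 TPM in shControl libraries, which left 20.7% of the shControl mean. Of 14 gastric epithelial markers, 3 were in the table; CDH1 averaged 0.233 ± 0.164 TPM in shGPER and 0.533 ± 0.153 TPM in shControl cells, TFF1 1.80 ± 1.38 TPM in shGPER and 5.10 ± 0.975 TPM in shControl cells, and CDX2 1.20 ± 0.329 TPM in shGPER and 0.380 ± 0.0854 TPM in shControl cells (SD, n = 3 each). The label of the cells could therefore not be checked in full. The groups did not overlap for 95.3% of the 2128 genes, so the table appears to have been selected for genes that differ, by an unstated rule, and a call for any listed gene is no independent evidence of a change.

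Most of the 30 members were lower in shGPER cells. The table held only 31 of the 485 genes on the class lists, so this does not describe splicing factors as a whole. Of the 30, 27 passed the filter of 1 TPM in 3 or more libraries, and 21 fell and 6 rose (limma on log2(TPM + 1), adjusted p under 0.05). Over all 1651 tested genes 98.4% were called, 50.6% lower and 47.8% higher in shGPER cells, whereas 77.8% of the tested members were lower and 22.2% higher. The median log2 fold change of the members was -0.93, beside -0.49 for all tested genes and -0.54 for the tested protein-coding genes. Adjusted p-values of the 27 lay between 2.26e-07 and 0.00116 (limma), and two-sided exact permutation tests gave p = 0.1 for each of the 30, the smallest value that 3 against 3 libraries allow. In all 30 the groups did not overlap, as in 95.3% of all listed and 97.4% of all tested genes. The 3 untested members were MEX3B and NOVA2, under 1 TPM in all 6 libraries, and MEX3A, at or under 1.02 TPM. In bulk RNA, fewer cells that express a gene and less of its RNA per cell cannot be told apart.

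**Figure D1:**
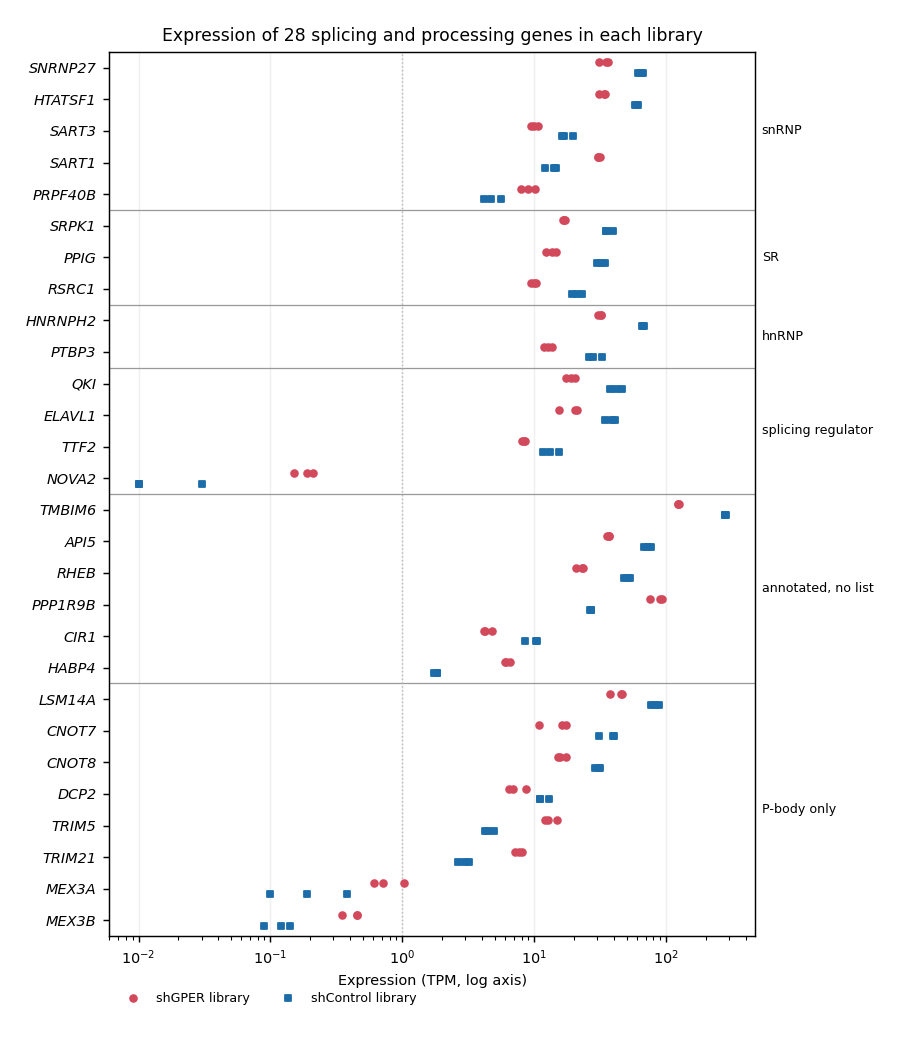
Expression (TPM, log axis) of 28 of the 30 members in each of 3 shGPER libraries (red circles) and 3 shControl libraries (blue squares), grouped by class, with a dotted line at 1 TPM. In each of the 28 rows the red and blue points do not overlap; red lies to the left for 19 genes and to the right for 9, of which 3 are below the level for testing.

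The sizes of the falls were close to each other. Among the 21 genes that fell, the shGPER mean was between 40.3 and 62.9% of the shControl mean, with a median of 47.3%, and 12 of the 21 were at 50% or less. Among the 6 that rose, the shGPER mean was 1.88 to 3.46 times the shControl mean, and 5 rose by at least 2-fold. The spread between libraries was small beside these differences, with a median coefficient of variation of the tested members of 6.54% in shGPER and 8.37% in shControl libraries. Neither the sizes nor the spread were compared with those of other genes in the table, which appears selected for genes that differ. Summed over the 30 genes, expression was 830 ± 6.81 TPM in shGPER and 1476 ± 11.9 TPM in shControl libraries (SD, n = 3 each; exact permutation p = 0.1). This sum leans on its most abundant genes, such as TMBIM6, at means of 124 TPM in shGPER and 280 TPM in shControl libraries. It also holds the 8 P-body genes. The members made up 1.73 ± 0.0431% of the summed TPM of the table in shGPER and 2.37 ± 0.0683% in shControl libraries.

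Direction went with the base composition of the transcripts, as it did across the table. The 6 genes that rose had a median transcript GC content of 55.6% (range 46.3 to 62.8%), and the 21 that fell one of 43.1% (37.6 to 50.5% for the 19 described); over the table, the median GC content of the genes called higher was 59.6% and of those called lower 44.3%. Fold change and GC content had a rank correlation of 0.52 across the 27 members and of 0.59 across 1626 tested genes, which share their libraries and are not independent. When a smooth trend with GC content was subtracted from each library, 11 members remained lower and 4 higher, and 12 were not called; over the table, 62.6% of genes were then called, 31.1% lower and 31.5% higher. The members' median log2 fold change was then -0.14, beside 0.0066 for all tested genes. The trend was estimated from selected genes, nearly all of them called, so that a call lost in this way leaves it unknown whether a gene changed, and how far base composition accounts for the differences was not tested.

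**Figure D2:**
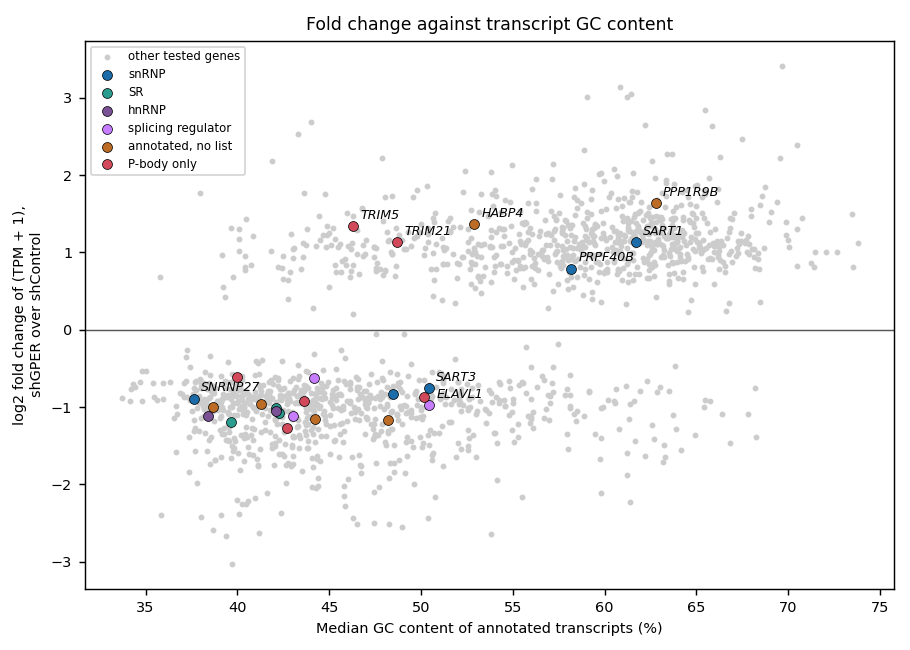
Log2 fold change of (TPM + 1), shGPER over shControl, against the median GC content of each gene's annotated transcripts, for 25 of the tested members (coloured by class) and the other tested genes (grey). The 6 members that rose lie at 46.3 to 62.8% GC and the 19 that fell at 37.6 to 50.5%; few genes of the table lie near a fold change of 0.

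The snRNP class moved both ways, with 3 of its 5 members lower and 2 higher in shGPER cells (median log2 fold change -0.76). The table did so too, with 50.6% of all tested genes lower and 47.8% higher. SNRNP27, a protein of the tri-snRNP, was at 36.45, 31.05 and 34.81 TPM in shGPER libraries and at 63.88, 66.94 and 61.01 TPM in shControl libraries (log2 fold change -0.89, SE 0.074; limma, adjusted p = 6.49e-06). HTATSF1, which associates with the snRNP that marks the branch site, was at 31.03, 33.63 and 34.24 TPM in shGPER and at 60.89, 57.47 and 60.02 TPM in shControl libraries (log2 fold change -0.83). SART3, which helps to rebuild snRNPs after a round of splicing, was at 9.43, 10.58 and 9.91 TPM in shGPER and at 19.63, 16.21 and 16.86 TPM in shControl libraries (-0.76). For these 3 genes every shGPER library was lower than every shControl library. The groups did not overlap in 97.4% of all tested genes either. The shGPER means of the 3 genes were 53.3, 55.4 and 56.8% of the shControl means. Of the annotated exonic bases of SNRNP27, 10.4% overlap MXD1 on the same strand, so reads may have been split between them.

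SART1 and PRPF40B were the 2 snRNP-class genes that rose. SART1 (ENSG00000175467; chromosome 11, 65961689 to 65979828, GRCh38), which helps to bring the tri-snRNP to the assembling spliceosome, was at 31.22, 30.20 and 30.50 TPM in shGPER libraries and at 11.99, 14.02 and 14.48 TPM in shControl libraries, a 2.27-fold higher mean (log2 fold change 1.13, SE 0.082; limma, adjusted p = 2.98e-06). PRPF40B, a homolog of a yeast protein that acts at the early step of splice site pairing, was at 7.91, 9.03 and 10.20 TPM in shGPER and at 4.19, 5.59 and 4.66 TPM in shControl libraries (0.79, SE 0.13; limma, adjusted p = 0.000348). Of the annotated exonic bases of PRPF40B, 48.7% overlap FAM186B or FMNL3 on the opposite strand. The library kit keeps strand, but whether counting used it is not stated, so this value is uncertain. Without the GC trend neither gene was called (SART1 0.17, adjusted p = 0.139; PRPF40B 0.074, adjusted p = 0.581; limma). SNRNP27 then lost its fall (0.031, adjusted p = 0.768; limma), whereas HTATSF1 and SART3 stayed lower, at -0.41 and -0.56.

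A ratio between members within a library does not depend on how the library was scaled, but it does move with the GC trend. SART1 was 3.31, 2.85 and 3.08 times SART3 in the shGPER libraries and 0.611, 0.865 and 0.859 times SART3 in the shControl libraries. SART1 over SNRNP27 was 0.857, 0.973 and 0.876 in shGPER and 0.188, 0.209 and 0.237 in shControl libraries. The order of SART1 and SART3 was thus the opposite in the 2 groups, with all 3 shGPER libraries above 1 and all 3 shControl libraries below it. With the GC trend removed, the log2 fold changes were 0.17 for SART1, -0.56 for SART3 and 0.031 for SNRNP27; little of the difference between SART1 and SNRNP27 then remained, and a smaller difference between SART1 and SART3. These pairs were picked after their values were seen, and no test is given.

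**Figure D3:**
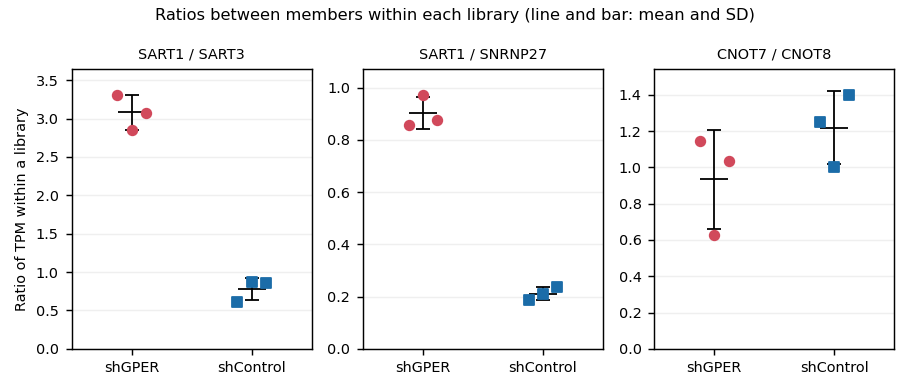
Ratio of the TPM of 2 members within each library, for SART1 over SART3, SART1 over SNRNP27 and CNOT7 over CNOT8, with shGPER libraries (red circles) left of shControl libraries (blue squares) and black marks for the mean and SD of 3 libraries. The first ratio lies between 2.85 and 3.31 in shGPER and between 0.611 and 0.865 in shControl libraries, while the ranges of the third overlap.

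The promoter windows of 2 members that rose and 2 that fell are shown to compare their base composition and motifs. Each is the 250 bases before the gene start in RefSeq (GRCh38.p14), which gave a window for 21 of the 30 members. SART1 lies at chr11:65961484-65961733 (plus strand), PRPF40B at chr12:49623311-49623560 (plus), SNRNP27 at chr2:69893706-69893955 (plus) and SRPK1, an SR protein kinase, at chr6:35921099-35921348 (minus). In GENCODE 29 the gene spans start elsewhere: the PRPF40B and SNRNP27 windows lie wholly inside them, the SRPK1 window almost wholly and the SART1 window in part. Capitals mark the CCAAT box, the GC box with its letters GGGCGG, the ETS-family motif with its letters CCGGAAG, and TGACGT, which is a part of the cyclic AMP response element, on either strand; no match overlaps another in these 4 windows.
SART1: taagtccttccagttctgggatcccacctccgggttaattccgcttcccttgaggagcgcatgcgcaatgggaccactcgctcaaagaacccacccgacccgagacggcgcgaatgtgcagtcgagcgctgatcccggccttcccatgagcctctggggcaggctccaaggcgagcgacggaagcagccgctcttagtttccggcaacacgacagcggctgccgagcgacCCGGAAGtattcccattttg
PRPF40B: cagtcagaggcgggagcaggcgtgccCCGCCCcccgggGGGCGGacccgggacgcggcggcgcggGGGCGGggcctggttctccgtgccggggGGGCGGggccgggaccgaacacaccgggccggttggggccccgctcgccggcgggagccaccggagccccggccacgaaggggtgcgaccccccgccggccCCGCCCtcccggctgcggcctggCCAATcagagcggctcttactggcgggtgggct
SNRNP27: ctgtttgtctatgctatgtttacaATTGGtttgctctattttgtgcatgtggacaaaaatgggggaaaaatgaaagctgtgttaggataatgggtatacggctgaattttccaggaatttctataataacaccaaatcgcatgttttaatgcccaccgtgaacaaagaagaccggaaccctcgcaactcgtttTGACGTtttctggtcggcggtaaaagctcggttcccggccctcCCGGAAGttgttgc
SRPK1: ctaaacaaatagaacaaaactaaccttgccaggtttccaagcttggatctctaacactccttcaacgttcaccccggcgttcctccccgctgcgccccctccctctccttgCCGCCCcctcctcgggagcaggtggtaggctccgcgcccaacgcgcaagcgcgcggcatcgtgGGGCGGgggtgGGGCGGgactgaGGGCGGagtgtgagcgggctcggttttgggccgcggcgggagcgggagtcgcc

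The GC content of these windows was 61.6% for SART1, 82.0% for PRPF40B, 44.0% for SNRNP27 and 66.8% for SRPK1. Over the windows of members, the median was 62.8% for the 6 genes that rose and 58.6% for the 12 that fell, beside 58% over all RefSeq promoters. SART1 and SNRNP27, which moved in opposite directions, were the 2 members whose window held the ETS-family motif; PRPF40B had 5 GC boxes and SRPK1 4. Among the windows of members, 61.9% held CCAAT, 71.4% the GC box, 9.52% the ETS-family motif and 23.8% TGACGT, beside 33.0, 42.3, 8.82 and 7.42% of 27305 RefSeq promoters. TGACGT was in only 5 of the 21 windows. Motif shares were not taken over the other genes of the table, so the contrast may not be particular to the members. Members that rose and members that fell shared these motifs: CCAAT was in 4 of 6 windows of genes that rose and in 7 of 12 of genes that fell, and the GC box in 3 of 6 of genes that rose and in 9 of 12 of genes that fell. The presence of a motif is a description of the sequence, and nothing follows from it about binding.

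All 3 members of the SR class fell (median log2 fold change -1.07), where 50.6% of all tested genes were lower; SRRM3, an SR-list gene in the table that is no member, rose (1.45). SRPK1, the kinase that phosphorylates SR proteins, was at 16.70, 16.95 and 16.59 TPM in shGPER libraries and at 34.95, 34.70 and 39.55 TPM in shControl libraries (log2 fold change -1.07, SE 0.071; limma, adjusted p = 1.94e-06). PPIG, a nuclear peptidylprolyl isomerase with an SR-like tail, was at 12.23, 14.49 and 13.62 TPM in shGPER and at 31.84, 29.95 and 34.15 TPM in shControl libraries (-1.19). RSRC1, an SR-related protein, was at 9.49, 10.02 and 10.34 TPM in shGPER and at 19.36, 21.23 and 22.90 TPM in shControl libraries (-1.01). The shGPER means were 46.0, 42.0 and 47.0% of the shControl means. No member encodes an SR protein of the SRSF family. Without the GC trend SRPK1 (-0.20) and PPIG (-0.27) stayed lower, at a smaller size, and RSRC1 lost its call (-0.14, adjusted p = 0.123; limma).

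All 3 members of the hnRNP class fell as well, where 50.6% of all tested genes were lower, and 2 of them are described. HNRNPH2, which binds G-rich RNA, was at 31.76, 31.99 and 30.65 TPM in shGPER and at 65.30, 66.32 and 67.85 TPM in shControl libraries (log2 fold change -1.06). PTBP3, a paralog of the polypyrimidine tract-binding protein, was at 13.54, 12.79 and 11.92 TPM in shGPER and at 27.63, 26.15 and 32.81 TPM in shControl libraries (-1.11).

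The shGPER means of HNRNPH2 and PTBP3 were 47.3 and 44.2% of the shControl means. HNRNPH2 stayed lower without the GC trend, at -0.18, and PTBP3 was not called (-0.19, adjusted p = 0.0614; limma). HNRNPH2 shares 20.1% of its 31-base words with other annotated genes, 15.2% with the readthrough gene RPL36A-HNRNPH2, so reads may have been split between them.

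Other splicing regulators fell in 3 of 3 tested cases, where 50.6% of all tested genes were lower. The other gene of this class, NOVA2, was below the level for testing. Of the tested genes on this list that are no members, KHDRBS3 rose (log2 fold change 0.66) and PIK3R1 fell (-0.89). PIK3R1 encodes a regulatory subunit of PI3-kinase, so the class name describes it poorly. QKI, an RNA-binding protein with a KH domain that controls alternative splicing and circular RNA formation, was at 20.21, 19.07 and 17.24 TPM in shGPER libraries and at 46.23, 41.87 and 37.74 TPM in shControl libraries (log2 fold change -1.11, SE 0.092; limma, adjusted p = 6.34e-06). ELAVL1, the protein HuR that binds AU-rich elements and stabilises mRNAs, was at 15.27, 20.29 and 21.17 TPM in shGPER and at 34.10, 41.21 and 38.50 TPM in shControl libraries (-0.98). TTF2, an ATPase that ends transcription and was found with spliceosomes, was at 8.08, 8.56 and 8.29 TPM in shGPER and at 15.48, 13.07 and 11.58 TPM in shControl libraries (-0.62). The gap between the groups was narrower for TTF2 than for the other 2, at 62.1% of the shControl mean. NOVA2, a splicing regulator of neurons, was at 0.15, 0.21 and 0.19 TPM in shGPER and at 0.01, 0.03 and 0.01 TPM in shControl libraries, all far below 1 TPM. Without the GC trend QKI (-0.27) and ELAVL1 (-0.78) stayed lower and TTF2 was not called (0.17, adjusted p = 0.202; limma).

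**Figure D4:**
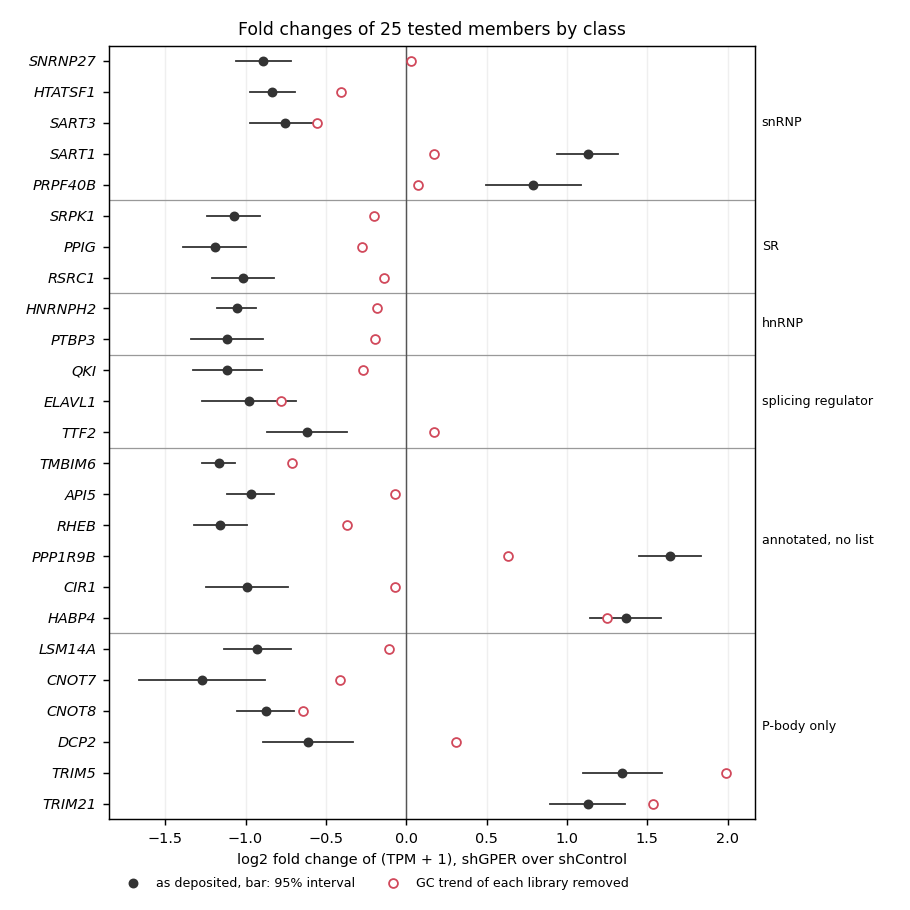
Log2 fold change of (TPM + 1), shGPER over shControl, of 25 of the tested members by class (black points, with 95% limma intervals) and the same after the GC trend of each library was removed (open red circles). All black intervals shown exclude 0, with 19 genes to the left and 6 to the right, and most red circles lie nearer to 0 than the black points; TRIM5 and TRIM21 lie farther away.

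The 6 members with a splicing annotation but on no class list are mainly known for other functions. Among them 4 fell and 2 rose, where 50.6% of all tested genes were lower and 47.8% higher. Calls in either direction covered 98.4% of all tested genes, so a call for each of the 6 does not set them apart. TMBIM6, a membrane protein of the endoplasmic reticulum that inhibits cell death, was at 124.88, 123.52 and 123.74 TPM in shGPER and at 277.20, 283.46 and 278.41 TPM in shControl libraries (log2 fold change -1.17, SE 0.044; limma, adjusted p = 2.26e-07). RHEB, the small GTPase that activates the mTOR kinase complex, was at 23.25, 23.00 and 20.61 TPM in shGPER and at 51.26, 47.95 and 53.45 TPM in shControl libraries (-1.16). API5, an apoptosis inhibitor, was at 36.78, 37.07 and 35.72 TPM in shGPER and at 67.51, 72.76 and 76.93 TPM in shControl libraries (-0.97). CIR1, a corepressor of Notch signalling, averaged 4.39 ± 0.365 TPM in shGPER and 9.75 ± 1.13 TPM in shControl cells (SD, n = 3 each). RHEB and API5 share 11.6 and 14.8% of their 31-base words with other genes, mostly the pseudogenes RHEBP1 and API5P1. Without the GC trend API5 (-0.070, adjusted p = 0.236) and CIR1 (-0.069, adjusted p = 0.593) lost their call in limma, and TMBIM6 (-0.71) and RHEB (-0.37) kept it.

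PPP1R9B and HABP4 had the highest log2 fold changes among the tested members. PPP1R9B, the scaffold spinophilin that targets a protein phosphatase, was at 75.13, 90.25 and 93.08 TPM in shGPER libraries and at 26.60, 26.91 and 26.93 TPM in shControl libraries (log2 fold change 1.64, SE 0.084; limma, adjusted p = 5.97e-07). HABP4, a hyaluronan- and RNA-binding protein, was at 6.08, 6.04 and 6.51 TPM in shGPER and at 1.83, 1.74 and 1.82 TPM in shControl libraries (1.37, SE 0.095). By level, PPP1R9B had rank 3 among the 30 genes in shGPER cells and rank 16 in shControl cells. Both stayed higher without the GC trend, at 0.64 and 1.25. Of the exonic bases of HABP4, 27.0% overlap CDC14B on the opposite strand.

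The 8 P-body genes also went both ways, as did all tested genes, 50.6% lower and 47.8% higher. The enzymes of mRNA decay among the 8 fell. CNOT7, a deadenylase of the CCR4-NOT complex, was at 17.27, 10.91 and 16.17 TPM in shGPER libraries and at 39.16, 30.77 and 40.19 TPM in shControl libraries, and had the lowest log2 fold change of all members (-1.27, SE 0.17; limma, adjusted p = 0.000110). CNOT8, its paralog in the same complex, was at 15.10, 17.43 and 15.58 TPM in shGPER and at 31.28, 30.70 and 28.68 TPM in shControl libraries (-0.88). DCP2, the decapping enzyme, was at 8.72, 6.44 and 6.87 TPM in shGPER and at 11.06, 12.83 and 11.13 TPM in shControl libraries (-0.61). The fall of DCP2, to 62.9% of the shControl mean, was the smallest of the 21. LSM14A, an RNA-binding protein needed to form P-bodies, was at 46.08, 45.29 and 37.68 TPM in shGPER and at 77.29, 81.73 and 88.52 TPM in shControl libraries (-0.93).

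CNOT7 varied more between libraries than CNOT8, with coefficients of variation of 23.0% in shGPER and 14.1% in shControl libraries, whereas those of CNOT8 were 7.67% in shGPER and 4.52% in shControl libraries. The ratio of CNOT7 to CNOT8 was 1.14, 0.626 and 1.04 in shGPER and 1.25, 1.00 and 1.40 in shControl libraries, and the groups overlapped. Without the GC trend CNOT8 stayed lower (-0.64), whereas CNOT7 (-0.42, adjusted p = 0.0833), LSM14A (-0.11, adjusted p = 0.263) and DCP2 (0.31, adjusted p = 0.0587) were not called (limma).

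TRIM5 and TRIM21, ubiquitin ligases known for restricting retroviruses and for sensing antibody-bound pathogens, rose. TRIM5 was at 12.02, 12.67 and 14.80 TPM in shGPER libraries and at 4.49, 4.98 and 4.22 TPM in shControl libraries (log2 fold change 1.35, SE 0.11; limma, adjusted p = 4.78e-06). Of its annotated exonic bases, 7.95% overlap AC104389.4 on the same strand. TRIM21 was at 7.60, 8.07 and 7.18 TPM in shGPER and at 2.97, 2.66 and 3.20 TPM in shControl libraries (1.13, SE 0.10). Their transcripts, at 46.3 and 48.7% GC, were the least GC-rich of the members that rose, and without the GC trend their fold changes were larger, at 1.99 and 1.53. MEX3A and MEX3B, RNA-binding ubiquitin ligases, were not tested; MEX3A averaged 0.780 ± 0.214 TPM in shGPER and 0.223 ± 0.143 TPM in shControl cells, and MEX3B 0.417 ± 0.0577 TPM in shGPER and 0.117 ± 0.0252 TPM in shControl cells (SD, n = 3 each).

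By level, the order of the 30 genes was much alike in the groups, with a rank correlation of 0.90 between their mean TPM. TMBIM6 had rank 2 in both, and LSM14A and API5 had ranks 3 and 4 in shControl cells. SNRNP27, HNRNPH2, HTATSF1 and RHEB followed closely, and their shControl libraries lay between 47.95 and 67.85 TPM. The genes that rose had low to middle levels in shControl cells, with means of 1.80 to 26.8 TPM, and the 19 described genes that fell had shControl means of at least 9.75 TPM.

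The lists of splicing and processing factors used for the classes held 485 genes, of which 31 were in the table and 16 were members. The table held 7 of 82 snRNP-class genes, 4 of 49 SR-class genes, 4 of 41 hnRNP-class genes, 2 of 38 helicases and 2 of 55 genes of the 3' end, and the other listed factors were not analysed here. Of the 15 listed genes that were no members, USP39 among them, 14 were tested, and 10 fell and 4 rose (limma, adjusted p under 0.05; 98.4% of all tested genes were called). Their median log2 fold change was -0.91, beside -0.49 for all tested genes, of which 50.6% were lower and 47.8% higher. Without the GC trend 6 of the 14 were lower and 4 higher, with a median of -0.19.

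The 2 helicase genes moved in opposite directions. DDX49, a DEAD-box helicase, was at 7.57, 7.31 and 10.01 TPM in shGPER libraries and at 18.61, 16.36 and 14.58 TPM in shControl libraries (log2 fold change -0.92). DHX37, a helicase of ribosome assembly, was at 13.89, 16.56 and 17.19 TPM in shGPER and at 5.42, 6.72 and 5.79 TPM in shControl libraries (1.27). Their transcripts had nearly the same GC content, 61.6 and 61.3%, and without the GC trend DDX49 was at -1.87 and DHX37 at 0.34, both called. The 2 genes of the 3' end list fell: RPRD1B, which binds the tail of RNA polymerase II, averaged 10.3 ± 0.509 TPM in shGPER and 24.4 ± 0.710 TPM in shControl cells, and CPEB4, which binds cytoplasmic polyadenylation elements, 9.76 ± 1.18 TPM in shGPER and 21.4 ± 2.20 TPM in shControl cells (SD, n = 3 each). RPRD1B stayed lower without the GC trend (-0.72) and CPEB4 was not called (-0.25, adjusted p = 0.0995; limma).

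Among the remaining listed genes, SRRM3 and NOSIP rose. SRRM3, the SR-related protein that promotes microexons in neurons and endocrine cells, was at 10.59, 10.02 and 12.93 TPM in shGPER libraries and at 4.08, 3.19 and 3.12 TPM in shControl libraries (log2 fold change 1.45). NOSIP, a ubiquitin ligase found in spliceosomes, was at 97.79, 104.19 and 106.05 TPM in shGPER and at 38.99, 40.00 and 35.73 TPM in shControl libraries (1.40). Without the GC trend they stayed higher, at 0.36 and 0.46. KHDRBS3, a STAR-family splicing regulator, averaged 1.99 ± 0.180 TPM in shGPER and 0.897 ± 0.220 TPM in shControl cells (SD, n = 3 each; 0.66), and was not called with quantile normalization (0.20, adjusted p = 0.153; limma); without the GC trend it stayed higher, at 1.53. RBFOX3, a neuronal splicing regulator, was below the level for testing, at 0.593 ± 0.127 TPM in shGPER and 0.150 ± 0.0529 TPM in shControl cells.

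CWC27 had the lowest log2 fold change of the listed genes. This spliceosomal cyclophilin, listed as a long non-coding RNA in the deposited table and so outside the annotation rule, was at 3.96, 3.03 and 3.33 TPM in shGPER libraries and at 11.37, 13.00 and 11.07 TPM in shControl libraries (-1.53; -0.61 without the GC trend). UPF3A, a factor of nonsense-mediated decay, fell to 40.6% of its shControl mean, USP39, a tri-snRNP recruitment factor, to 47.5%, HNRNPUL2, an hnRNP U-like protein, to 48.1%, STRAP, a partner of the SMN complex that builds snRNPs, to 53.2%, FYTTD1, an mRNA export adaptor, to 51.2%, and PIK3R1, a regulatory subunit of PI3-kinase, to 49.6%. UPF3A, USP39 and HNRNPUL2 stayed lower without the GC trend, and STRAP, FYTTD1 and PIK3R1 were not called. UPF3A shares 23.6% of its 31-base words with other genes, mostly the pseudogene UPF3AP2, and HNRNPUL2 shares 43.6% with its readthrough gene HNRNPUL2-BSCL2.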

How the data were processed

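The 6 tables, 1 for each of 3 shGPER and 3 shControl libraries of SNU668 cells, were grouped by their titles. Per the labels' protocols, a stranded mRNA kit was applied to total RNA. Each table holds TPM per gene as deposited by the authors. Tools named in the submitters' processing notes are fastp, RSEM and HISAT2, without versions, and hg38 is the build. TPM are relative to the total of a library, so abundant transcripts shift all others, and depth is unknown.

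Log2(TPM + 1) of 1651 genes with at least 1 TPM in at least 3 of 6 libraries was fitted with limma 3.58.1 (R 4.3.3; shGPER minus shControl, intensity trend), with Benjamini-Hochberg adjustment over all tested genes and a threshold of 0.05; 477 genes were left out. Fold changes on this scale understate those of low genes. The fit was tested on simulated data in which most genes did not change. Here 98.4% of the tested genes were called, so that test does not vouch for the calls in this table. Members, class lists, motifs and alternatives were chosen with earlier results of these data known. Every member could be named whatever its result, but 2 of the 30 are not reported here, although counts and sums over all members include them; the P-body class and the ratio pairs were set after the files were seen. GC content is the median over a gene's transcripts in GENCODE 29, known for 98.5% of tested genes; its trend was a natural spline with 3 degrees of freedom per library. Python 3.11.15, pandas 2.3.3, numpy 2.4.6, scipy 1.17.1 and matplotlib 3.10.9 were used.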

Additional observations from a re-analysis of the deposited data

How the results depend on the processing

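All 27 tested members kept their direction and their call with a replicate block, without each library in turn, without the intensity trend, with a robust prior, with median centring (which moved log2 fold changes by 0.15) or quantile normalization, at a filter of 5 TPM or none, and at pseudocounts of 0.5 and 0.1, with adjusted p up to 0.0232 (limma). Counts stayed at 21 lower and 6 higher without each library in turn and with the replicate block. In the main fit 98.4% of all 1651 tested genes were called, in a table that appears selected for genes that differ. A kept call is thus no independent evidence of a change. The equal replicate numbers did not pair the libraries: deviations of same-numbered libraries had correlations of 0.033, -0.087 and 0.013, and no shGPER library was closest to the shControl library of its number. Without a filter 9 members were higher, since NOVA2, MEX3A and MEX3B were then called, which gave 1 splicing regulator and 4 P-body genes higher.

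With members limited to splicing or spliceosome terms 17 were lower and 4 higher, and with ZNF638 and USP39 kept 23 and 6. Over all tested genes 50.6% were lower and 47.8% higher in the same fit. Removal of the GC trend left 11 members lower and 4 higher, beside 31.1% lower and 31.5% higher over the table. By class, it left 0 snRNP genes higher, 2 genes on no class list lower and 1 P-body gene lower. Log2 fold changes then turned to 0.31 for DCP2, 0.031 for SNRNP27, 0.17 for TTF2, 0.035 for PIK3R1 and 0.010 for STRAP, none of them called, and the cause was not tested. Since depth is unknown, no counting precision can be given, least of all for genes under 1 TPM.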
